A study of Enchytraeus albidus with 21 samples.

Results

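The same nominal condition, 2 days in control soil, was measured in 2 experiments with the white potworm Enchytraeus albidus, and the transcript levels of the 3 control samples of experiment 1 were set against those of experiment 2. The samples were taken by their titles: 7 of the 21 arrays of the series carry worms kept for 2 days in control soil. Replicates 2 and 4 of experiment 2 gave nearly identical arrays and were averaged to 1 sample, which left 6 of 20 samples, 3 in each experiment. Each replicate pooled 10 adults that bore a clitellum, the thickened ring of glandular skin that marks sexual maturity, and RNA came from the whole body. The worms of both groups were kept in separate vessels of 25 g of moist soil at 20 °C, lit for 16 h and dark for 8 h a day, and neither group received acetone or any other agent. The labels give no strain and no age in days, and they name no difference between the groups other than the experiment. The other arrays of the series carry worms taken from the culture at day 0 (3) and worms kept for 2 days in acetone-spiked soil (3), both in experiment 1, and worms kept for 4 days (4) or 8 days (4) in control soil in experiment 2.

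Enchytraeus albidus is a small segmented worm of soil, compost and shore debris that feeds on decaying matter and microbes, and it is used to test the toxicity of soils. In such tests, treated worms are set against worms from clean soil of the same run, so the level of each transcript in clean soil is the baseline from which a response is counted. A whole-body sample holds gut, muscle, epidermis, nerve cord, coelomic cells and germ line together. In such bulk samples, fewer cells of a type and less RNA per cell cannot be told apart.

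The array carried 1035 worm probes in 14 or 15 spots each. The files repeat the probe identifier where a gene name would stand, so probes are given by identifier, and neither their genes nor the whole-body label could be checked against marker genes. A level here is the log2 signal of a probe relative to the 75th percentile of the worm spots of its own array, so that 0 is as bright as that percentile and a difference of 1 is 2-fold. To be tested, a probe had to stand well above background on all arrays of 1 group or of both, as 889 probes did.

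Before any difference was tested, the arrays of experiment 2 split into pairs. Distances between samples are median absolute deviations of the log2 differences over the 889 probes. They are taken about the median difference, which leaves out an overall shift, and are scaled to match an SD under a normal spread. Arrays 2 and 4 lay 0.071 apart by this measure, and no probe differed by more than 0.58 between them. Among the 3 samples of experiment 1 that distance was between 0.24 and 0.43. Replicates 1 and 3 of experiment 2 lay 0.46 apart, while each of them lay 1.13 or 1.16 from the averaged pair. The averaged pair was nearer to the samples of experiment 1 (0.72 to 0.78) than to replicates 1 and 3 of its own group. Replicates 1 and 3 lay 1.13 to 1.37 from the samples of experiment 1. The level of the averaged pair fell outside the range spanned by replicates 1 and 3 for 776 probes (87.3%).

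Transcript levels of the 2-day controls differed between the experiments for 66 of the 889 probes, or 7.42%, at an adjusted p of 0.05 (limma, Benjamini-Hochberg adjustment over all probes tested). Of these, 25 probes (2.81%) were higher in experiment 2 and 41 (4.61%) were lower. In measured means the 25 probes with the higher level were raised 1.92-fold to 10.697-fold, with a median of 3.33-fold. The 41 lower probes differed by 2.17-fold to 24.6-fold, with a median of 5.83-fold. At an unadjusted p under 0.05 there were 244 probes (27.4%), and the samples of the groups did not overlap for 319 probes (35.9%), 175 of them higher in experiment 2 and 144 lower. The groups did not overlap for any of the 66 called probes. A further 175 probes differed more than 2-fold in their means without passing the test.

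The count of 66 depended on which sample was present. Without replicate 2 or 3 of experiment 1, or without replicate 1 of experiment 2, no probe passed in limma, while 166, 160 and 187 had an unadjusted p under 0.05. All calls named below were therefore lost in those 3 settings. Without replicate 1 of experiment 1 a single probe, P5_A4_T7_1329813, passed. Without replicate 3 of experiment 2, 35 probes passed. Without the averaged pair, 516 passed, 358 higher and 158 lower, all 66 among them, and the groups did not overlap for 659. The count without overlap cannot fall when a sample is left out, so its rise is no test. The split into higher and lower calls also moved with the scaling: 37.9% of calls were higher under the 75th percentile, 42.7% under quantile normalization, 43.6% when arrays were centred on their median and 27.1% when they were set to the mean of 6 spike-in control probes.

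Over all 889 probes the median log2 difference, experiment 2 minus experiment 1, was 0.33, with quartiles of -0.32 and 0.80. Quantile normalization brought that median to 0.090, and the differences of the called probes are given beside it: their median differences were 1.74 and -2.54 under the 75th percentile and 1.52 and -2.44 under quantile normalization. The shift was not shared by all samples of experiment 2. Against the mean of experiment 1, the median over all probes was 0.48 in replicate 1, 0.38 in replicate 3 and -0.034 in the averaged pair. More than 2-fold differences were counted for 417 probes (46.9%) in replicate 1, 363 (40.8%) in replicate 3 and 199 (22.4%) in the averaged pair. In replicate 1, 317 of them were higher and 100 lower, whereas in the averaged pair 68 were higher and 131 lower.

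For the 25 higher probes the median difference from experiment 1 was 1.96 in replicate 1, 1.24 in the averaged pair and 1.88 in replicate 3. For the 41 lower probes it was -2.45, -1.96 and -2.45. In the averaged pair, 60 of the 66 called probes differed more than 2-fold from the mean of experiment 1. These values come from the samples that chose the 66 probes and describe them only.

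**Figure D1:**
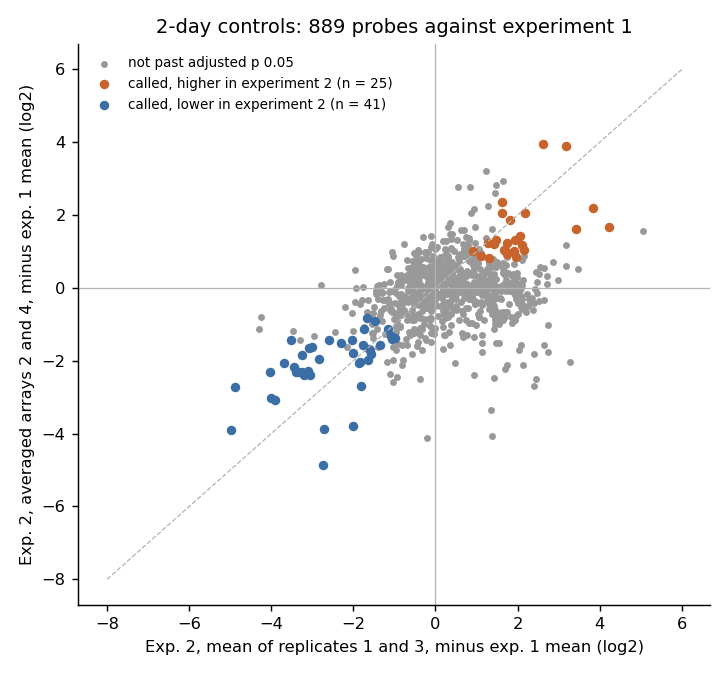
Log2 difference from the mean of experiment 1 for the 889 tested probes, with the mean of experiment 2 replicates 1 and 3 on the horizontal axis and the averaged arrays 2 and 4 on the vertical axis. The dashed line marks equal differences. The 25 higher and 41 lower probes lie away from 0 on both axes, while most other probes spread along the horizontal axis.

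The largest positive difference was that of P1-9G_T7_821247. Its levels were -4.29, -4.50 and -3.24 in the 3 samples of experiment 1, and -0.38 (replicate 1), -0.12 (averaged pair) and -1.28 (replicate 3) in experiment 2. Every sample of experiment 2 was above every sample of experiment 1, and the means were 3.42 ± 0.46 log2 units apart (SE, 3 samples against 3, adjusted p = 0.0131), or 10.697-fold. Later in experiment 2 its means were -2.27 at 4 days and -1.98 at 8 days, between those of the 2-day groups. The 4-day samples ran from -4.06 to -0.74, and the lowest lay within the range of the 2-day samples of experiment 1.

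Contig41 was well above background on all 4 arrays of experiment 2 and on none of the 3 of experiment 1. Its measured levels were -9.84, -10.27 and -9.74 in experiment 1, and -5.35, -8.27 and -6.09 in replicate 1, the averaged pair and replicate 3 of experiment 2. The averaged pair was the lowest of these 3 samples. The measured means differed by 3.38 log2 units (adjusted p = 0.0477). Since experiment 1 gives only an upper limit, the mean processed signal is given as at least 2.31-fold higher in experiment 2. This bound sets the mean of the bright group against the lowest signal well above background on each array of the dim group. Under normexp background correction the difference was 1.05 log2 units (adjusted p = 0.169), so the bound applies only to the processed signal. Of the 66 calls, 4 are bounds of this kind, 2 in each direction, and 55 were well above background on all 7 arrays.

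The largest negative difference was that of P5_A4_T7_1329813, at -0.97, -0.18 and 0.089 in experiment 1 and at -5.28, -4.26 and -5.38 in experiment 2. The samples within each group lay close together relative to the gap of -4.62 ± 0.43 (adjusted p = 0.00898), a 24.6-fold lower level in experiment 2. P1_F7_T7_1328858 was a bright probe in experiment 1, at 1.65, 2.01 and 2.02, and stood at -3.06, -0.84 and -2.94 in experiment 2. Here replicates 1 and 3 fell furthest and the averaged pair lay between them and experiment 1. The difference was -4.17 ± 0.61 (adjusted p = 0.0131). For both probes the 4-day and 8-day means of experiment 2 lay nearer to the mean of experiment 1 than the 2-day mean did: P5_A4_T7_1329813 had means of -2.03 and -2.97 on those days and P1_F7_T7_1328858 means of -0.20 and -0.62.

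The 14 arrays outside the 2-day controls come from the same experiments and share no sample with them, so they were set against each other for the same probes. The mean of the 4-day and 8-day controls of experiment 2 was compared with the mean of the culture and acetone samples of experiment 1, a contrast in which treatment and time differ as well as the experiment. It called 49 of 862 probes (5.68%), 32 higher (3.71%) and 17 lower (1.97%) in experiment 2. Without acetone replicate 1 or 3 the count was 32 or 29, without culture replicate 1 or 2 it was 32 or 26, and without 4-day replicates 1 and 2, scanned on another scanner model, it was 98. The share of higher calls, 65.3%, was 50% under quantile normalization, 53.8% under centring on the median and 11.8% under spike-in scaling, which moved the median of all probes from 0.21 to -0.13.

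Of the 66 probes called in the 2-day controls, 62 were measured in this second contrast. There 58 differed in the same direction, against 635 of the 857 probes tested in both contrasts (74.1%). The 25 higher probes had a median difference of 1.03 over the 23 measured, 21 of them positive, and the 41 lower probes one of -0.77 over the 39 measured, 37 of them negative. P1-9G_T7_821247, P5_A4_T7_1329813 and P1_F7_T7_1328858 kept their direction but were not called there (limma, adjusted p = 0.108, 0.110 and 0.136). Across the 857 probes the differences of the contrasts correlated with Pearson's r of 0.59 and Spearman's rho of 0.63. Probes are not independent replicates, and both contrasts share the array design and the scaling. Calls in the same direction in both contrasts numbered 19, or 28.8% of the calls at 2 days and 38.8% of those in the second contrast, 11 of them higher and 8 lower. None was called in opposite directions. That count was 0 without any of the 3 samples of experiment 1 at 2 days or without replicate 1 of experiment 2, and 7 without replicate 3 of experiment 2. It was 43 without the averaged pair and 10 to 12 without acetone replicate 1 or 3 or any of the culture replicates.

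Among the 25 higher probes, 21 (84%) had means at 4 and at 8 days in experiment 2 that both exceeded the culture and acetone means of experiment 1, which held for 40.8% of all 889 probes. Among the 41 lower probes, 32 (78.0%) had both means below, against 15.4% of all probes. The median level of the 25 probes ranged from -3.74 to -2.87 over the 6 culture and acetone samples and from -2.83 to -1.45 over the 8 samples of 4 and 8 days. These ranges lay 0.040 apart, and they overlapped when arrays were centred on their median or set to the spike-in probes, where the range was -4.12 to -2.48 for culture and acetone and -3.33 to -0.050 for 4 and 8 days. The median level of the 41 probes ranged from -3.19 to -2.21 and from -3.94 to -2.58 in the same samples, and these ranges overlapped. In the 2-day samples of experiment 2, on which the lists were chosen, the medians were -1.233 to -1.001 for the higher and -4.77 to -3.83 for the lower probes, and the latter range overlapped that of the 4-day samples.

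**Figure D2:**
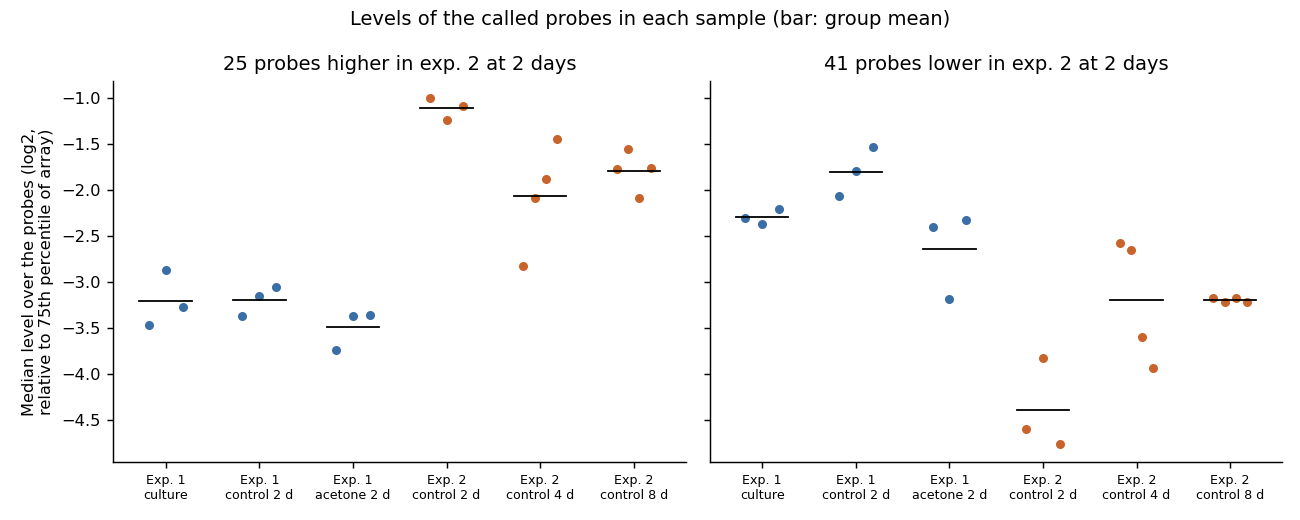
Median log2 level, relative to the 75th percentile of each array, over the 25 probes higher (left) and the 41 probes lower (right) in experiment 2 at 2 days, for each of the 20 samples, with bars at group means. The lists were chosen from the 2-day groups, whose means lie furthest apart on the right. On the left the acetone mean (-3.49) lies below that of the 2-day controls of experiment 1 (-3.20). The 4-day and 8-day samples lie between -2.83 and -1.45 on the left and between -3.94 and -2.58 on the right.

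Of the probes called in both contrasts, Contig51 had the largest positive difference at 2 days. In experiment 1 it stood at -8.17, -7.71 and -8.69, well above background on 1 of the 3 arrays, and in experiment 2 at -3.93, -6.00 and -4.76 in replicate 1, the averaged pair and replicate 3. The difference in measured means was 3.29 ± 0.56 (adjusted p = 0.0202). Its means in experiment 2 were -4.90 at 2 days, -3.94 at 4 days and -0.10 at 8 days, an order given without a test. In the second contrast it was 5.88 ± 0.59 higher in experiment 2 (adjusted p = 1.27e-04), with every 4-day and 8-day sample above every culture and acetone sample. Of the 6 culture and acetone arrays, 1 was well above background for this probe, so the measured differences rest on dim values on that side. Under normexp background correction they were 1.36 at 2 days (adjusted p = 0.0911) and 3.35 in the second contrast (adjusted p = 0.00273).

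P5_F4_T7_1329818 had the tightest groups of the named probes. Its levels were -3.02, -3.16 and -2.99 in experiment 1 and -0.888, -0.999 and -0.856 in experiment 2, a difference of 2.14 ± 0.21 (adjusted p = 0.00987) or 4.42-fold. The averaged pair did not stand apart from replicates 1 and 3 for this probe. In the second contrast it was 1.79 ± 0.27 higher in experiment 2 (adjusted p = 0.00278, and 0.274 under spike-in scaling).

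On the lower side, P1_E1_SP6_1371394 stood at -3.84, -3.45 and -3.26 in experiment 1 and at -6.61, -6.61 and -8.24 in experiment 2, where replicate 3 was not well above background. The difference was -3.63 ± 0.49 (adjusted p = 0.0131), and in the second contrast it was -1.04 ± 0.28 (adjusted p = 0.0416). The latter call was lost under 17 of 29 other settings. Under normexp background correction the differences were -1.10 (adjusted p = 0.0803) and -0.39 (adjusted p = 0.245). P3_F2_T7_1328987 was at -5.16, -6.91 and -5.34 in experiment 1, and on none of the 4 arrays of experiment 2 was it well above background. Its measured means differed by -3.44 (adjusted p = 0.0460), and as a bound it was at least 3.12-fold lower in experiment 2. In the second contrast its mean at 4 and 8 days was again below the culture and acetone mean, by -3.21 ± 0.70 in measured values (adjusted p = 0.0171). The samples overlapped, with 4-day replicate 1 at -5.70 and acetone replicate 3 at -6.07. Most of the later arrays of experiment 2 were not well above background for this probe. Neither difference held under normexp background correction, where they were -0.016 (adjusted p = 0.982) and -0.60 (adjusted p = 0.232), so the bound applies only to the processed signal.

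**Figure D3:**
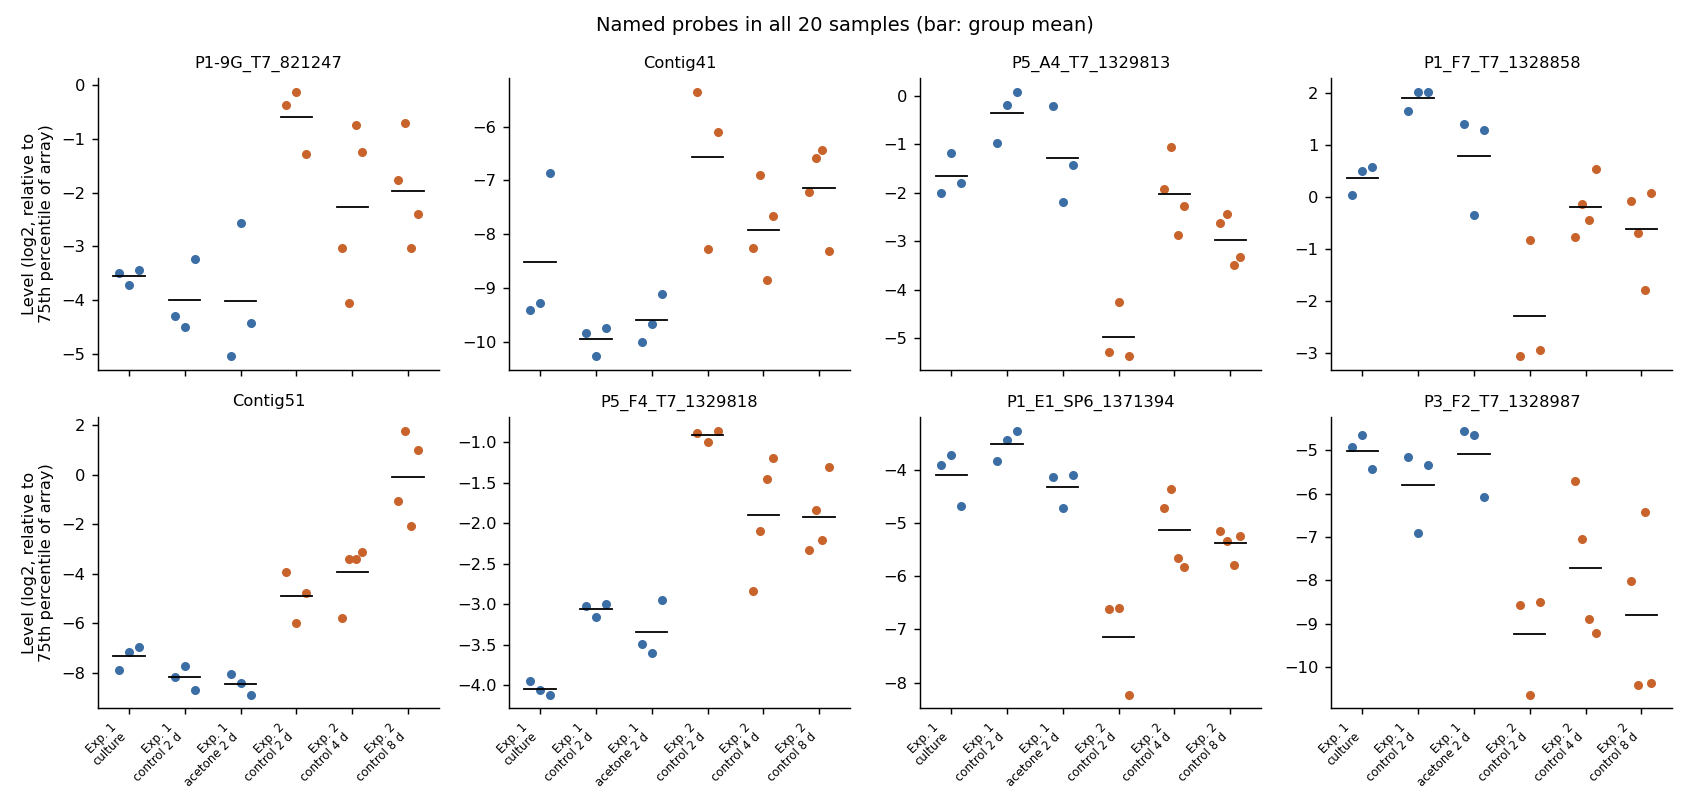
Log2 level of the 8 named called probes in each of the 20 samples by group, with bars at group means and a separate vertical scale for each probe. The 2-day groups of the experiments do not overlap for any of the 8, and for Contig51 and P5_F4_T7_1329818 the later samples of experiment 2 also lie above all samples of experiment 1.

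Replicates varied more in experiment 2. The median SD of a probe over the 3 samples was 0.20 log2 units in experiment 1 and 0.59 in experiment 2, and the SD was larger in experiment 2 for 764 of 889 probes (85.9%). An SD above 1 was found for 30 probes in experiment 1 and 172 in experiment 2. Without the averaged pair the count of 764 became 465, with 2 samples left in experiment 2. The 66 called probes shared this, since 57 of them had the larger SD in experiment 2. The probe with the largest SD in experiment 2 was P3_5D_T7_1329685 (SD 4.57), at -7.61 in replicate 1, -0.033 in the averaged pair and 0.63 in replicate 3. The probe with the largest SD in experiment 1 was P1_B11_T7_1328879 (SD 3.86), at -2.07 and -2.35 in replicates 1 and 2 and at -8.89 in replicate 3. The first also varied in the culture samples, from -6.59 to 2.29, and the second in the acetone samples, from -9.21 to -2.30. Neither passed the test between the experiments (adjusted p = 0.364 and 0.535).

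Detection differed between the experiments for few probes. Of the 1035 probes, 827 were well above background on all 7 arrays, and 92 on none. Only 2 probes were well above background on all arrays of experiment 1 and none of experiment 2, and 4 showed the reverse. Within experiment 2, 8 probes were well above background on arrays 1 and 3 and on neither array 2 nor array 4, and 17 the other way round.

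The probes fall into classes by the form of their identifier, which the files do not explain: 345 carry Met, 198 carry Pest, 171 are numbered contigs, and 321 carry a plate position only. Most of the lower calls were plate-only probes. That class gave 33 of the 66 calls, 5 higher and 28 lower among 273 tested (12.1% of them, against 7.42% of all probes). The contigs gave 8 higher and 1 lower among 155 (5.81%), the Met probes 10 higher and 8 lower among 294 (6.12%), and the Pest probes 2 higher and 4 lower among 167 (3.59%). The count of 28 was 0 or 1 without any 1 of the samples of experiment 1 or without replicate 1 of experiment 2, 16 without replicate 3 of experiment 2 and 98 without the averaged pair.

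The classes also differed in their median difference, which was 0.67 for contigs, 0.62 for Pest probes, 0.45 for Met probes and -0.29 for plate-only probes. For the first 3 classes this came from replicates 1 and 3: the contigs had medians of 1.07 and 0.99 in these, and 0.054 in the averaged pair. The plate-only probes had medians of -0.33, -0.17 and -0.40 in replicate 1, the averaged pair and replicate 3. The endings SP6 and T7, which are also the names of sequencing primer sites that flank the insert in many cloning vectors, went with the class. Probes ending in SP6 had a median of 0.48 and those ending in T7 one of -0.16. Within the Met class these medians were 0.51 and 0.16, and within the Pest class 0.63 and -0.088. Within the plate-only class both endings were negative, at -0.33 for SP6 and -0.27 for T7. The difference also went with signal: over quartiles of the mean level in the culture and acetone samples, the median was 0.66 in the dimmest and 0.22 in the brightest quartile, with 0.16 and -0.0070 between them. In the dimmest quartile replicates 1 and 3 stood at 1.14 and 0.89 and the averaged pair at -0.088. In that quartile the plate-only probes had a median of -0.57 and the others one of 0.69. The part of signal level and of identifier class in the calls was not tested.

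**Figure D4:**
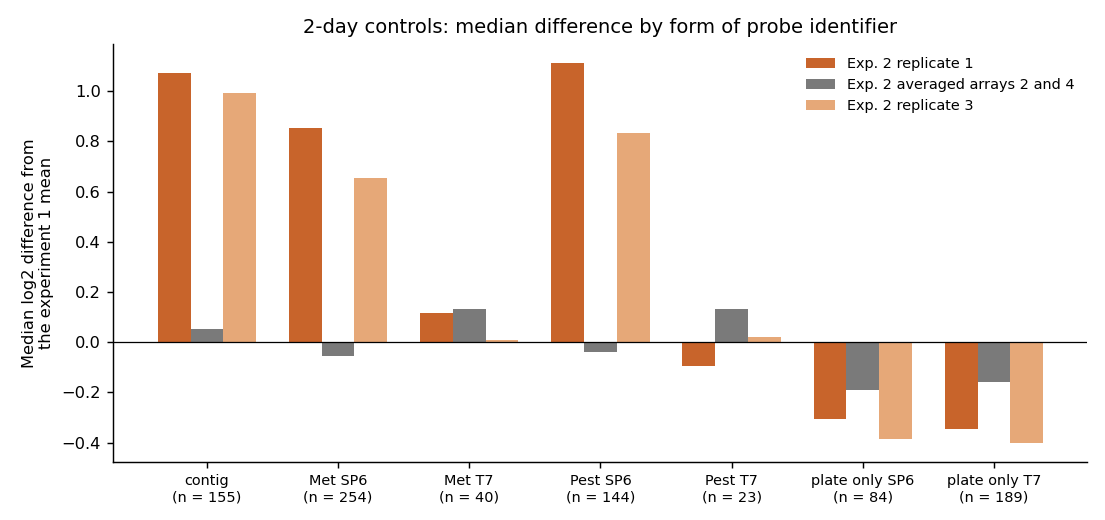
Median log2 difference from the mean of experiment 1 by form of probe identifier, with bars for replicate 1, the averaged arrays 2 and 4, and replicate 3 of experiment 2. The n under each class is the number of probes tested. Contigs and SP6 probes with Met or Pest show medians up to about 1.11 in replicates 1 and 3 and near 0 in the averaged pair, and plate-only probes are below 0 in every sample.

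Array brightness and spike-in balance moved with the split inside experiment 2. The processed signal at the 75th percentile was 2130, 2580 and 2200 in experiment 1, and 868, 2570, 1150 and 1760 on arrays 1 to 4 of experiment 2, so that arrays 1 and 3 were the dimmest of the 7. Over the 3 samples of each experiment it was 2303 ± 242 and 1394 ± 682 (SD, n = 3, exact permutation test, two-sided p = 0.20, where 0.10 is the smallest p these groups allow). The mean log2 signal of the 6 spike-in probes was 11.42 ± 0.25 and 10.71 ± 0.19 (SD, n = 3, exact p = 0.10), and the groups did not overlap. The log2 gap between a brighter and a dimmer spike-in probe was 3.35, 3.46 and 3.38 in experiment 1 and 3.54 and 3.58 on arrays 2 and 4 of experiment 2. It was 2.35 and 2.42 on arrays 1 and 3. Outside these 2 arrays, the lowest gap was 2.58, on 8-day replicate 3, and the other 18 arrays ranged from 3.02 to 3.93. Over all 6 spike-in probes the arrays were less set apart. The root mean square deviation from the 2-day controls of experiment 1, after centring each array, was 0.30 and 0.31 on arrays 1 and 3. It was 0.17 and 0.13 on arrays 2 and 4, but 0.31 and 0.32 on 4-day replicates 3 and 4 and 0.32 on 8-day replicate 3. The part of brightness and of spike-in balance in the differences was not tested.

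**Figure D5:**
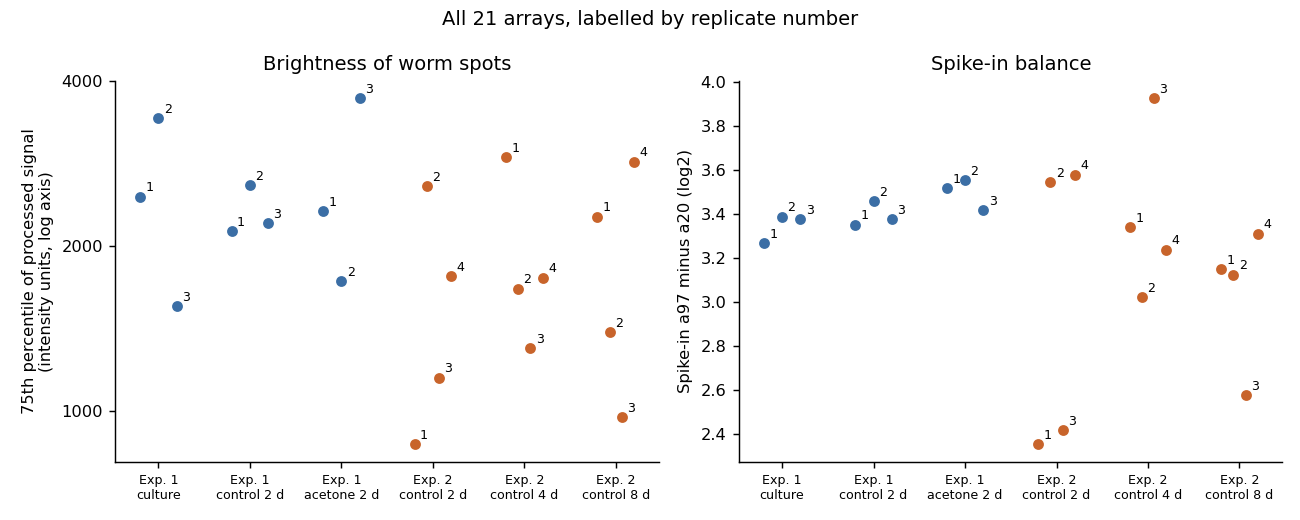
Brightness at the 75th percentile of the worm spots (left, intensity units on a log axis) and the log2 gap between 2 spike-in control probes (right) for each of the 21 arrays by group, labelled with the replicate number. Arrays 1 and 3 of the 2-day controls of experiment 2 and 8-day replicate 3 are the 3 lowest in both plots.

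The place of an array on its slide, read from the middle part of the array barcode, also went with the split inside experiment 2. That this part gives a place was taken from Agilent's usual naming. Arrays 1 and 3 of experiment 2 lay at place 1 of their slides and arrays 2 and 4 at place 2, while replicates 1 and 3 of experiment 1 lay at place 1 and replicate 2 at place 2. Experiment 1 showed no such split by place. Its replicates 1 and 3 lay 0.34 apart, and replicate 2 lay 0.43 from replicate 1 and 0.24 from replicate 3. In experiment 2, arrays 1 and 2 shared a slide and a scan day, and arrays 3 and 4 shared another slide and another scan day. The split thus ran within slides and within scan days. Within place 1 (2 samples against 2), 419 probes were called (47.1%), 304 higher and 115 lower, 65 of the 66 among them, and the median of all probes was 0.43. Within place 2 there was 1 sample against 1 and no test, and the median of all probes was -0.12. The direction of the 66 called probes within a place is fixed by their choice, since their groups do not overlap. The 25 higher probes had medians of 1.87 at place 1 and 1.22 at place 2, and the 41 lower probes medians of -2.63 and -1.86. With place as a block in the fit, 68 probes were called, 23 higher and 45 lower, and 60 of the 66 remained.

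Among the named probes, the difference for P5_F4_T7_1329818 was 2.13 within place 1 and 2.16 within place 2. For P1-9G_T7_821247 it was larger within place 2 (4.38 against 2.94), and for Contig51 it was larger within place 1 (4.09 against 1.71). P5_A4_T7_1329813 differed by -4.89 and -4.08, and P1_F7_T7_1328858 by -4.84 and -2.84.

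The 2-day groups of the experiments share no scan day and no slide, so neither can be told apart from the experiment at 2 days. With the scan day as a random block no probe passed in limma, and 65 had an unadjusted p under 0.05. In that fit all samples of experiment 1 shared a block, and each sample of experiment 2 had its own. The averaged pair, whose arrays were scanned on different days, was given a separate block. The blocks thus followed the experiments, so the fit cannot separate scan day from experiment. A scan day shared by both experiments exists only for other groups: acetone replicates 2 and 3 and 8-day replicates 3 and 4 were scanned together, with acetone replicate 3 and 8-day replicate 3 on the same slide. Among these 4 arrays, 20 of 23 measured higher probes differed in the positive direction, as did 61.1% of all probes tested, and 31 of 39 lower probes in the negative direction, as did 38.9% of all. Their median differences were 1.16 and -0.81, beside 0.22 for all probes. Here too, treatment and time differ as well as the experiment, and the 4 arrays are part of the second contrast. On 8-day replicate 3, 669 probes were well above background, against 902 to 919 on the other 8-day arrays.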

How the data were processed

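The deposited files give Agilent one-colour (Cy3) spot intensities. Per the file headers, the processed signal is an intensity after subtraction of background and spatial detrending, separately for each array, and extraction used Agilent Feature Extraction 10.5.1.1 with scanner model G2505B for all 7 arrays compared. A newer version, 10.7.3.1, and model G2505C served for replicates 1 and 2 at 4 days, although the notes on processing from the submitters give 10.5.1.1 alone. RNA was taken with Trizol and treated with DNase, and 0.5 µg was amplified and labelled, per the labels' protocols. The deposited table of the authors' normalized values was not used, since it is normalized per experiment.

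Each array held 15744 spots, of which 536 controls were left out, as were spots marked as outliers. Log2 processed signals were averaged per probe and the array's 75th percentile over its 15208 worm spots was subtracted. An array counted a probe as well above background if the scanner software marked so a share of 0.5 or more of the spots kept. Two-sided tests were run with lmFit, contrasts.fit and eBayes of limma (3.58.1, under R 4.3.3) with Benjamini-Hochberg adjustment, after a test on simulated data. The number of arrays limits the precision. The replicates were kept in separate vessels, per the labels' protocols, and arrays 2 and 4 of experiment 2 were counted as 1 sample.

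Named probes were the 2 largest differences each way among called probes without overlap, the 2 largest each way among other probes called in both contrasts in the same direction, and the probe with the largest SD in each group. Alternatives were quantile and median scaling, normexp background correction of the median signals (offset 50, as the files used hold no mean signal), other filters on dim probes, arrays 2 and 4 apart, blocks for replicate number and scan day, array weights, a trended robust eBayes, leaving out the newer scanner model and leaving out each sample. Spike-in scaling, place on the slide, the median without the dimmest arrays and the scalings of the list levels were added after seeing the data. The samples, classes and named-probe rule were chosen with earlier results of these data known.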

Additional observations from a re-analysis of the deposited data

Results flagged for a closer look

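In groups of 4 samples, a sample was singled out where its gap to the nearest other sample took up most of the group's range (Dixon's test at 95%), and 2 of 34 groups tested gave such a sample. Chance gives about 1 in 20. Contig51 was at -5.81 in 4-day replicate 1 of experiment 2, while the other 3 samples of that day lay between -3.40 and -3.14. On 8-day replicate 3 of experiment 2, 669 probes were well above background, against 902 to 919 on the other 8-day arrays. That array was the highest of the 4 for 10 of the 25 higher probes and the lowest for 14 of the 41 lower probes, beside 36.8% and 35.3% of all probes.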

How the results depend on the processing

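Calls at 2 days (66) moved by more than 1.5 times under quantile normalization (110), normexp background correction (43), arrays 2 and 4 as separate samples (134), array weights (495), scan day as a random block (0, correlation 0.841) and place 1 only (419), and ranged from 0 to 516 with a sample left out (35 without replicate 3 of experiment 2). The second contrast (49) gave 26 under normexp, 22 under a stricter filter (542 probes tested), 143 under array weights, 98 without the newer scanner model and 17 under spike-in scaling, and 26 to 61 with a sample left out. The 19 calls shared by both contrasts became 12 under normexp, 9 with no filter, 10 under the stricter filter, 0 with scan day, 102 under array weights, 30 without the newer scanner model, 11 with place as a block, 6 under spike-in scaling, and 0 to 43 with a sample left out. The 28 lower plate-only calls became 17 under normexp, 50 with arrays 2 and 4 apart, 0 with scan day, 99 under array weights, and 0 to 98 with a sample left out (16 without replicate 3 of experiment 2). The count of larger SDs in experiment 2 (764) ranged from 465 to 786 and that of groups without overlap (319) from 349 to 659 with a sample left out. The latter count cannot fall when a sample is left out. The median difference (0.33) ranged from 0.24 to 0.39, and was -0.034 with the averaged pair alone. P1_B11_T7_1328879 reversed to -0.34 without replicate 3 of experiment 1 and reached 3.33 without replicate 3 of experiment 2. The gap between the lowest 4-day or 8-day and the highest culture or acetone sample in the median level of the 25 higher probes (0.040) reversed to -0.055 under median centring and -0.85 under spike-in scaling. The cause of these moves was not tested. At 2 days the scan-day blocks followed the experiments, so the counts of 0 from that fit cannot speak to scan day.

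With the replicate number as a block, calls were 0 at 2 days (limma, 202 at an unadjusted p under 0.05), 9 in the second contrast, 0 shared and 0 lower plate-only. Same-numbered samples correlated at -0.24, -0.24 and 0.18 in their deviations, with the averaged pair taken as number 2. Samples of unlike number correlated at -0.19 to 0.33. So few samples cannot settle whether the numbers pair them, and the numbers were used as names of samples only. Slide as a random block could not be fitted at 2 days. Of the 8 named calls, Contig41 was lost under 11 and P3_F2_T7_1328987 under 10 of 23 settings, and the other 6 were lost under 5 to 8.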
